A study of Homo sapiens with 2 samples.

Results

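The endoplasmic reticulum (ER) chaperones and folding enzymes described here are 10 genes chosen by name for their known function: HSPA5, HSP90B1, HYOU1, CALR, CANX, PDIA3, PDIA4, PDIA6, SDF2L1 and HERPUD1. Each symbol matched 1 of the 50867 gene rows of the deposited table, so all 10 were measured. RNA was sequenced from HCT116, an established human colorectal carcinoma cell line, after transfection with siRNA to PHF5A (the knockdown library) or with control siRNA (the control library). PHF5A belongs to the splicing complex SF3b, which helps the U2 small nuclear ribonucleoprotein to bind the branch point of an intron, and the question was which transcripts depend on it. Each group had 1 library, which leaves every difference without a replicate check and allows no test across samples. No siRNA sequence is given in the labels, and with 1 PHF5A siRNA library its other effects cannot be told apart from those of PHF5A loss.

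Proteins that enter the secretory pathway fold in the lumen of the ER, where HSP70 and HSP90 class chaperones hold unfolded stretches, lectin chaperones hold newly glycosylated chains and disulfide isomerases form and reshuffle cysteine bridges. Chains that do not fold are moved back to the cytosol and degraded by the proteasome. When unfolded chains accumulate, the sensors ATF6, IRE1 and PERK start the unfolded protein response, in which cleaved ATF6 and spliced XBP1 raise transcription of many chaperone genes, acting with the factor NF-Y at an ER stress response element (ERSE) in their promoters. Secretory epithelia such as the colon express these chaperones at a high level.

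The promoter sequences are given first, because the shared element is the best known sequence feature of these genes. All are RefSeq sequences of build GRCh38.p14, written 5′ to 3′ on the strand of the gene, with the motif match in capitals. The first set shows the HSP70 and HSP90 class genes, whose values differed most among themselves. HSPA5 and HYOU1 are shown for the 250 bases before the transcript start, and HSP90B1 for the first 180 of these, up to the end of its last match.
HSPA5 (chr9:125241344-125241593, minus strand): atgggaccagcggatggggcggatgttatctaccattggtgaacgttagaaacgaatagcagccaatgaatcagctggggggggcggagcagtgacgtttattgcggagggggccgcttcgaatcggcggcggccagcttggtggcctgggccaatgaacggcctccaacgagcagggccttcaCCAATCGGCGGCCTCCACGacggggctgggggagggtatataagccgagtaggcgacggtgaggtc
HSP90B1 (chr12:103930160-103930339, plus strand): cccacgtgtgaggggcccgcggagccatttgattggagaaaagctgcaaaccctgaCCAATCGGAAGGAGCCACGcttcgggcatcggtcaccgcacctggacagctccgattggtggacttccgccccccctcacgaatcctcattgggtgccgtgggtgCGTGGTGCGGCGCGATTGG
HYOU1 (chr11:119057206-119057455, minus strand): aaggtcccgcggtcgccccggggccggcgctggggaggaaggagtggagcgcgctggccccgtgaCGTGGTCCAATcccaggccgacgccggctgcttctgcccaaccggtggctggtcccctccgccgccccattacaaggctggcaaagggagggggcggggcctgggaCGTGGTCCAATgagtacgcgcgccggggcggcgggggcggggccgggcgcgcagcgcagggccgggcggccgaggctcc

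The ERSE was searched as CCAAT, any 9 bases and CCACG, and the ERSE-II as ATTGG, any base and CCACG, each on both strands in windows from 250 bases before to 50 after each RefSeq start. HSPA5 held an ERSE whose first base lies 66 bases before the start. HSP90B1 held an ERSE that begins 194 bases before the start and a second, on the opposite strand, that begins 89 bases before it, and GENCODE release 29 starts some HSP90B1 transcripts within this second match. HYOU1 held ERSE-II on the opposite strand at 185 and at 79 bases before the start, with the same 11 letters at each place. The match at 185 bases overlaps a match to the XBP1 motif TGACGTGG (UPRE), which begins 188 bases before the start.

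The second set shows single matches in the lectin chaperones, PDIA6 and the genes of the cofactor and degradation group, each with the 15 bases to either side.
CALR (chr19:12938369-12938417, plus strand): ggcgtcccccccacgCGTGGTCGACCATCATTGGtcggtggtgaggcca
CANX (chr5:179698763-179698811, plus strand): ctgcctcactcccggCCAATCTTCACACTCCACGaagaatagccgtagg
PDIA6 (chr2:10812838-10812886, minus strand): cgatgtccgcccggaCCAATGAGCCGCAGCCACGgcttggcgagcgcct
SDF2L1 (chr22:21642099-21642139, plus strand): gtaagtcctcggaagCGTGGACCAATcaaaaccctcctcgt
HERPUD1 (chr16:56932010-56932050, plus strand): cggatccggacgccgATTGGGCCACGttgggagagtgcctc

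CALR (begins 225 bases before the start, opposite strand), CANX and PDIA6 (86 bases) held an ERSE. SDF2L1 (188 bases, opposite strand) and HERPUD1 (117 bases) held an ERSE-II. CANX has 4 windows, and 3 of them contain the same ERSE, at 151 bases before the start in the window plotted. The elements of HSP90B1, CANX and PDIA6 lie inside the span of the gene in the table. PDIA4 had neither element in its windows, and no window was given for PDIA3. An ERSE stood in the windows of 5 of the 9 members with a window and of 25 of all 27305 genes (0.0916%). An ERSE-II stood in those of 3 members and of 19 genes (0.0696%), and the UPRE in those of 1 member and of 253 genes (0.927%). The short ends were common: CCAAT stood in the windows of 39.7% and CCACG in those of 42.1% of all genes, and each in those of 9 of 9 members. As background, the ERSE was defined on promoters of this family, HSPA5, HSP90B1 and CALR among them, and the ERSE-II on HERPUD1, so these matches are no independent finding, and a match is a description of letters and not of binding.

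**Figure D1:**
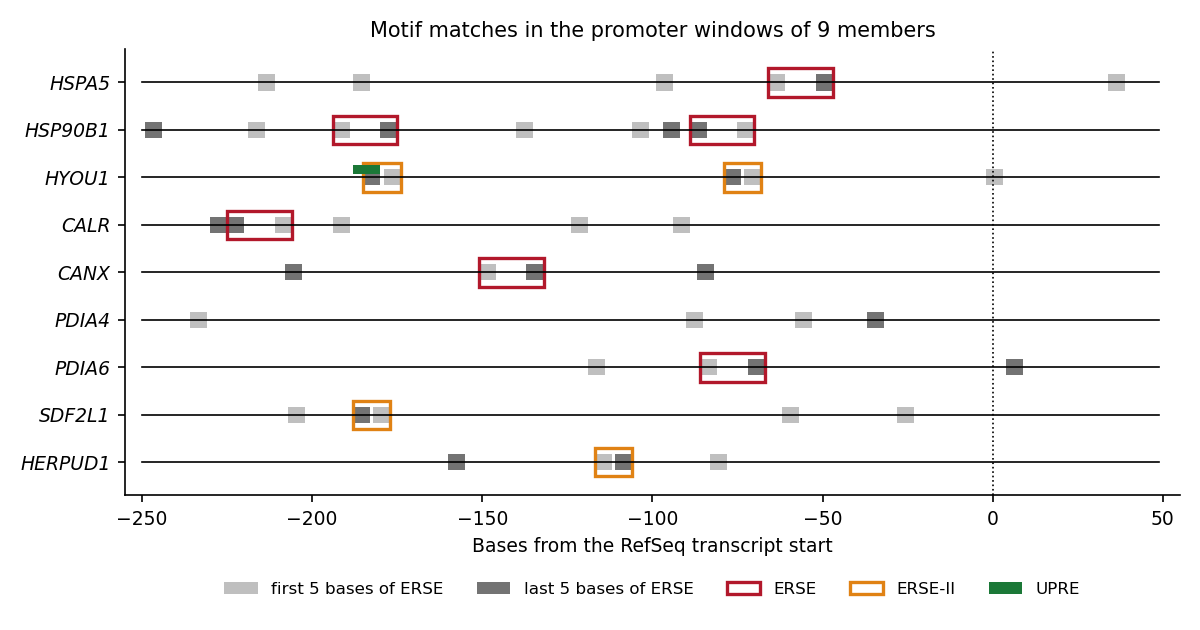
Motif matches in 1 promoter window of each of 9 members, with the distance from the RefSeq transcript start in bases on the horizontal axis (0 is the first transcribed base). Red boxes mark ERSE in 5 members, orange boxes ERSE-II in 3 and the green bar the UPRE of HYOU1, while PDIA4 has only the short ends (light and dark grey) apart from each other.

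The libraries were first checked against their labels. They held 25897412 counts in the knockdown and 26552789 in the control library. PHF5A (ENSG00000100410, chromosome 22, 41459717 to 41468725, GRCh38) had 91 counts and 2.31 FPKM in the knockdown library against 367 counts and 9.07 FPKM in the control library. FPKM is the count scaled to the length of the gene and to the library total. From counts scaled to the library total PHF5A was lower in the knockdown library by 3.93-fold (3.12 to 5.005), as its label states. This and every later interval beside a ratio is a 95% exact binomial interval, which covers counting error only and not variation between cultures. Colon epithelial markers took 1.37% of the knockdown and 1.40% of the control counts over 8 genes, and most of these counts were of KRT8, KRT18 and KRT19. In the same list CDX2 had 367 counts in the knockdown and 822 in the control library (log2 ratio -0.93), VIL1 had 1 and 0 counts, and CDX1 was at 0 in both libraries. Heart muscle markers went against the label of the control library: 18 of 18 reached at least 1 FPKM in that library, with a sum of 341 counts in the knockdown against 100705 in the control library. Of the 18, 9 were at 0 in the knockdown library, MYH7 (0 against 10058 counts) and PLN (0 against 1758) among them, and none in the control library. Fibroblast markers had 877 counts in the knockdown and 2878 in the control library over 7 genes, of which 2 reached 1 FPKM. The list was not uniform. COL1A1 had 786 counts in the knockdown and 1362 in the control library and COL3A1 31 and 959, but DCN had 9 and 8 and PDGFRB 42 and 44. The heart markers took 0.00132% of the knockdown and 0.379% of the control counts. With the heart markers left out of both totals, no log2 ratio of the 10 chaperone genes moved by more than 0.0054. This leaves out the reads of these 18 marker genes only, so the full share of their source is not known. Any other reads from the same source stay in the totals, among the expressed genes and in the counts of the 10 genes. The source of the heart and fibroblast marker reads in the control library was not tested. In bulk RNA, fewer cells of a type and less RNA per cell cannot be told apart either.

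All 10 chaperone genes reached 1 FPKM or more in the library where they were higher, the level called expressed here, which 8957 genes of the table reached. Ratios are log2 of knockdown over control with 1 added to each FPKM. The median of the expressed genes was -0.15 on this scale, with an SD over genes of 0.63. HSPA5 and HSP90B1 were higher in the knockdown library by 1.5-fold or more, as were 8.45% of the expressed genes, and 0 of the 10 were lower by that much, against 18.2% of the expressed genes. At 2-fold, 0 of the 10 were higher and 0 lower, against 2.53% and 6.2% of the expressed genes. The median of the 10 was 0.30, which is 0.45 above that of the expressed genes, and 10 of 10 lay above that median. By counts, 8 had an interval above 1, that of PDIA6 held 1, and that of PDIA4 lay below 1. The interval lay above 1 for 28.4% of the expressed genes. Of the expressed genes as a whole 757 were higher and 1631 lower at 1.5-fold as deposited, but 1150 and 1130 after centring on their median, and 319 and 3884 of 9664 after rescaling to TPM (FPKM divided by its sum over genes). For this reason each gene is also set against that median.

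**Figure D2:**
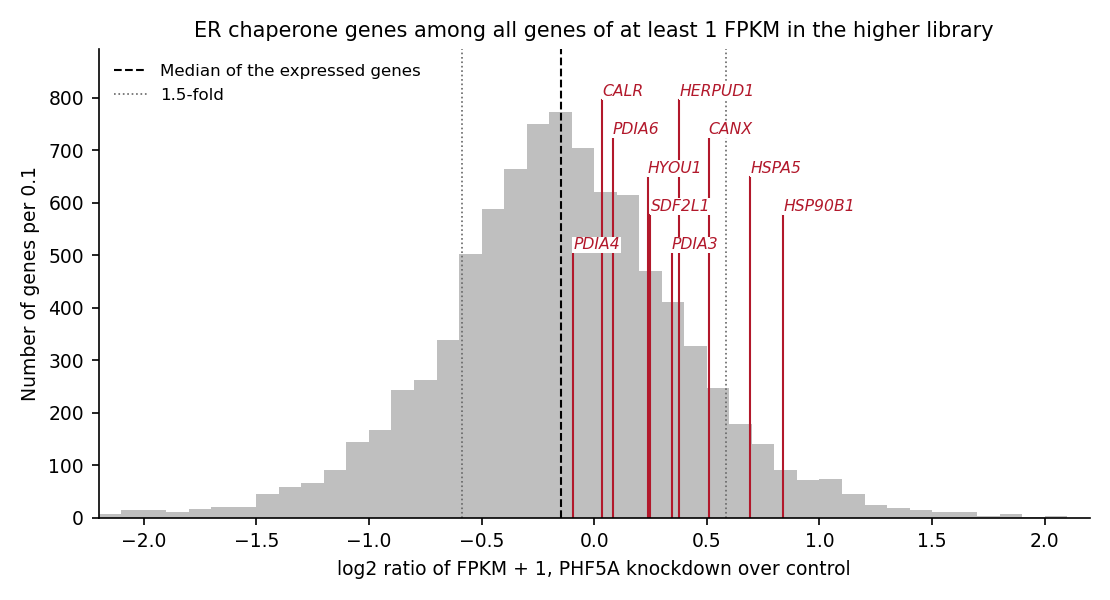
Histogram of the log2 ratio of FPKM + 1, PHF5A knockdown over control, for the 8957 expressed genes in bins of 0.1 (53 genes lie outside the axis), with a red line at each of the 10 chaperone genes. All 10 lie to the right of the dashed median at -0.15, and HSPA5 and HSP90B1 lie beyond the dotted line of 1.5-fold.

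HSPA5 (BiP, also GRP78; ENSG00000044574, chromosome 9, 125234853 to 125241330) is the HSP70 of the ER lumen, which binds exposed hydrophobic stretches and also holds the stress sensors inactive. It had 7092 counts and 70.1 FPKM in the knockdown library against 4458 counts and 43.0 FPKM in the control library. Its log2 ratio was 0.69, and by counts it was 1.63-fold higher (1.57 to 1.69), above 93.9% of the expressed genes. Among protein-coding genes it ranked 301 by FPKM in the knockdown and 524 in the control library.

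HSP90B1 (GRP94; ENSG00000166598, chromosome 12, 103930107 to 103953645) is the HSP90 of the ER, needed to fold integrins and Toll-like receptors among other clients. It had 2300 counts and 11.7 FPKM in the knockdown library against 1229 counts and 6.09 FPKM in the control library. This was the highest ratio of the 10, with a log2 ratio of 0.84 and a 1.92-fold higher level by counts (1.79 to 2.06). The intervals of HSP90B1 and HSPA5 do not overlap. Unlike HSPA5, HSP90B1 shares its locus: C12orf73 had 51 counts in the knockdown and 77 in the control library, and with both overlapping entries added the ratio was 1.86 (1.74 to 1.99).

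HYOU1 (GRP170; ENSG00000149428, chromosome 11, 119044189 to 119057202) is a large HSP70 relative that exchanges the nucleotide of HSPA5. It had 10082 counts and 24.6 FPKM in the knockdown library against 8694 counts and 20.7 FPKM in the control library. Its log2 ratio of 0.24 (-0.16 with TPM rescaling) came to 1.19 by counts (1.16 to 1.22), below the intervals of HSPA5 and HSP90B1. The partners of this group therefore had unequal ratios, although each lay above the median of the expressed genes.

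CALR (calreticulin; ENSG00000179218, chromosome 19, 12938578 to 12944489) is the soluble lectin chaperone, which binds glycans that carry a single glucose and stores calcium. It had the highest level of the 10, with 19433 counts and 153 FPKM in the knockdown library against 19425 counts and 149 FPKM in the control library. The count ratio was 1.03 (1.01 to 1.05) and the log2 ratio 0.04, or -0.38 with TPM rescaling. CALR alone held 37.5% of the counts of the 10 genes in the knockdown and 43.0% in the control library.

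CANX (calnexin; ENSG00000127022, chromosome 5, 179678628 to 179730925) is the membrane-bound counterpart of calreticulin and binds the same glycans. It had 3087 counts and 11.6 FPKM in the knockdown library against 2143 counts and 7.83 FPKM in the control library, a log2 ratio of 0.51 and a count ratio of 1.48 (1.40 to 1.56). CALR stood 14.5-fold above CANX in the knockdown library and 20.8-fold above it in the control library, counted per kilobase of merged exons. The lectin chaperones thus differed in ratio, and their intervals do not overlap.

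PDIA3 (ERp57; ENSG00000167004, chromosome 15, 43746392 to 43773279) is the disulfide isomerase that works on glycoproteins held by CALR and CANX. It had 2134 counts and 14.9 FPKM in the knockdown library against 1692 counts and 11.6 FPKM in the control library. The log2 ratio was 0.34 (-0.05 with TPM rescaling) and the count ratio 1.29 (1.21 to 1.38). A processed copy, PDIA3P1, had 280 counts in the knockdown and 223 in the control library, which is 13.1% and 13.2% of the PDIA3 counts. With the copy added the ratio was again 1.29.

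PDIA4 (ERp72; ENSG00000155660, chromosome 7, 149003062 to 149028641) is a larger isomerase found in complexes with HSPA5 and HSP90B1. It had 4033 counts and 42.4 FPKM in the knockdown library against 4419 counts and 45.3 FPKM in the control library. Its ratio was the lowest of the 10, at 0.936 by counts (0.896 to 0.977) and -0.09 on the log2 scale. It lay 0.05 above the median of the expressed genes as deposited, but below that median with TPM rescaling (-0.51 against -0.47) and with no filter on FPKM (-0.09 against -0.04). Its log2 ratio was above 0 after centring (0.05), with upper-quartile scaling (0.08) and with the abundant small RNAs left out of the totals (0.06). The ratio of HSP90B1 divided by that of PDIA4 was 2.05.

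PDIA6 (P5; ENSG00000143870, chromosome 2, 10783391 to 10837977) is an isomerase that works together with HSPA5. It had 1323 counts and 8.399 FPKM in the knockdown library against 1271 counts and 7.87 FPKM in the control library. The count ratio of 1.07 had an interval that held 1 (0.987 to 1.15), so a difference was not detectable at this depth. The log2 ratio was 0.08, and -0.29 with TPM rescaling. None of the 3 isomerases reached 1.5-fold.

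SDF2L1 (ENSG00000128228, chromosome 22, 21642261 to 21644298) is a small luminal protein that works with the J-domain protein DNAJB11 as a cofactor of HSPA5. It had 1241 counts and 32.7 FPKM in the knockdown library against 1064 counts and 27.3 FPKM in the control library. Its log2 ratio was 0.25 (-0.16 with TPM rescaling) and its count ratio 1.196 (1.101 to 1.30), an interval that contains the ratio of HYOU1.

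HERPUD1 (HERP; ENSG00000051108, chromosome 16, 56932048 to 56944863) is a membrane protein of the HRD1 ubiquitin ligase complex, which sends misfolded chains to degradation. It had 1066 counts and 3.28 FPKM in the knockdown library against 764 counts and 2.29 FPKM in the control library. The count ratio was 1.43 (1.30 to 1.57) and the log2 ratio 0.38, lower on that scale because 1 is added to a small FPKM.

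**Figure D3:**
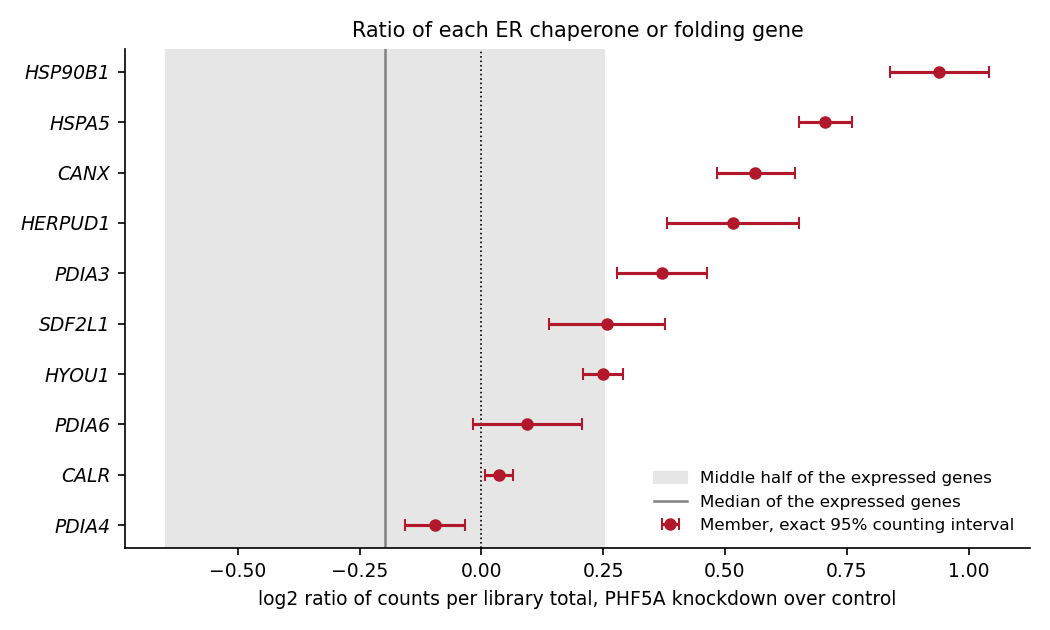
Log2 ratio of counts scaled to the library total, PHF5A knockdown over control, with exact 95% counting intervals, from HSP90B1 at the top to PDIA4 at the bottom. The grey band is the interquartile range of the expressed genes (-0.65 to 0.25, median -0.20), and 10 of 10 genes lie above its median; with TPM rescaling PDIA4 lies below it.

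In order of count ratio the genes ran HSP90B1, HSPA5, CANX, HERPUD1, PDIA3, SDF2L1, HYOU1, PDIA6, CALR and PDIA4. Neighbours whose intervals overlap are CANX and HERPUD1, HERPUD1 and PDIA3, PDIA3 and SDF2L1, SDF2L1 and HYOU1, and PDIA6 and CALR. Of all 45 pairs, 37 have intervals that do not overlap. The same share was not computed for pairs of other expressed genes, so this count is not a trait of the 10. Pairs that overlap without being neighbours are HSPA5 and HERPUD1, PDIA3 and HYOU1, and SDF2L1 and PDIA6. At 7 of the 10 loci 12 other entries overlap the gene, with at most 6.27% of its counts in a library, and HSPA5, PDIA4 and SDF2L1 have none. The genes with an ERSE span most of this order, from HSP90B1 to CALR. PDIA4 at its end had no exact match to either element, and PDIA3 had no window. Whether an element goes with the ratio was not tested. The 3 genes with an ERSE-II, HERPUD1, SDF2L1 and HYOU1, lie in its middle.

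The levels of different genes can be compared only per length, and the deposited length matters here. The length implied by count and FPKM lay within 0.1% of the summed length of all distinct annotated exons, overlapping ones counted each time, for 9 of the 10 genes, and 1.16% below it for HSP90B1. A gene with many overlapping transcripts is therefore divided by a length above that of its merged exons: 12.6 kb against 5.16 kb for HERPUD1 and 15.8 kb against 7.69 kb for HYOU1, but 3.91 kb by either measure for HSPA5. Ratios between the libraries are not touched by this, apart from the weight of the added 1.

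By deposited FPKM the order in the knockdown library was CALR, HSPA5, PDIA4, SDF2L1, HYOU1, PDIA3, HSP90B1, CANX, PDIA6 and HERPUD1. In the control library it was CALR, PDIA4, HSPA5, SDF2L1, HYOU1, PDIA3, PDIA6, CANX, HSP90B1 and HERPUD1. Neighbours not separated by counting error were HSP90B1 and CANX in the knockdown library, and PDIA4 and HSPA5, and PDIA6 and CANX, in the control library. HSP90B1 thus stood in place 7 in the knockdown and place 9 in the control library, and HSPA5 in place 2 and place 3.

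As CPM (the count scaled to the library total as in FPKM) per kilobase of merged exons, CALR stood at 276 in the knockdown and 270 in the control library, and HSPA5 at 70.1 and 43.0. On this scale HYOU1 moved up, to 50.6 in the knockdown and 42.6 in the control library, next to PDIA4 at 47.5 and 50.8 and SDF2L1 at 43.6 and 36.5. PDIA3 (19.4 in the knockdown and 15.03 in the control library), CANX (19.1 and 12.9) and HSP90B1 (18.9 and 9.86) were not separated in the knockdown library, while in the control library the 3 were apart. PDIA6 (12.5 and 11.7) and HERPUD1 (7.98 and 5.58) were the lowest in the knockdown library. HSP90B1 amounted to 0.270 of HSPA5 in the knockdown and 0.229 in the control library.

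**Figure D4:**
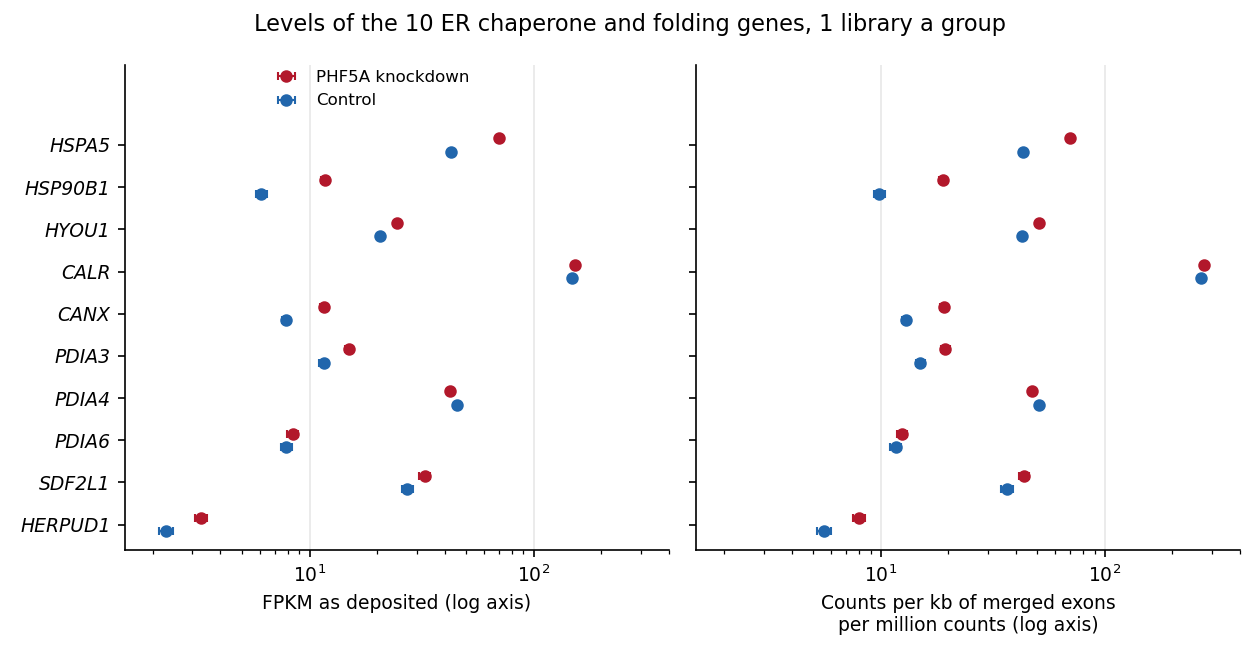
Level of each of the 10 genes in the PHF5A knockdown (red) and control (blue) library on log axes, as deposited FPKM (left) and as CPM per kilobase of merged exons (right), with exact 95% Poisson intervals, many narrower than the point. The red point lies to the right of the blue one for every gene but PDIA4; with TPM rescaling this holds only for HSPA5, HSP90B1, CANX and HERPUD1.

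Together the 10 genes held 51791 counts in the knockdown and 45159 in the control library, or 0.200% and 0.170% of the totals, a ratio of 1.18 (1.16 to 1.19). Without CALR the other 9 held 0.125% and 0.0969%, a ratio of 1.29 (1.27 to 1.31). The denominators moved with the groups. RN7SL1, RN7SL2, RN7SK and RPPH1, which are abundant small noncoding RNAs, took 23.96% of the counts in the knockdown and 15.4% in the control library. With these 4 RNAs left out of the totals, the ratio of the 10 genes was 1.31 and that of the 9 without CALR 1.44, and CANX passed 1.5-fold as well (log2 ratio 0.66). In that setting 1226 of 9812 expressed genes were higher by 1.5-fold or more, against 757 of 8957 as deposited.

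As PHF5A acts in splicing, the genes were also set against others of like exon number, taken from the longest GENCODE transcript. That number ran from 3 exons in SDF2L1 to 26 in HYOU1, with 8 in HSPA5 and 17 in HSP90B1. Over all expressed protein-coding genes the median log2 ratio was -0.09 for 1 to 4 exons, -0.14 for 5 to 9, -0.18 for 10 to 14, -0.21 for 15 to 19 and -0.27 for 20 or more. Each of the 10 lay above the median of its own class, by 0.08 (PDIA4) to 1.05 (HSP90B1). Splicing itself was not analysed here, since the table is per gene.

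The other genes of ER protein folding and traffic were counted in 9 lists of 124 genes, of which 95 were expressed. Genes below the expressed level are left out of the counts that follow, and the added 1 shrinks the ratio of genes with low FPKM. In the knockdown library 8 of the 95 (8.42%) were higher by 1.5-fold or more and 10 (10.5%) were lower by as much, beside 8.45% and 18.2% of all expressed genes. The share of higher genes was thus close to the background. At 2-fold, 2 were higher and 2 lower.

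Of the J-domain proteins and other HSPA5 cofactors 0 of 7 expressed genes passed 1.5-fold either way, and their median was -0.04. Below 1 FPKM, DNAJC10 had 88 counts in the knockdown and 282 in the control library, 3.13-fold lower (2.45 to 4.02). SEC63, also below 1 FPKM, was 1.30-fold higher by counts (1.03 to 1.65). The J-domain proteins DNAJC3 (log2 ratio 0.16) and DNAJB9 (0.15) and the stress-induced factor MANF (-0.15) stood near 0, and CNPY3, a cofactor of HSP90B1, had 0.38. Among the other disulfide isomerases and oxidases 1 of 11 was higher and 3 were lower, with a median of 0.00. The higher one was ERP29 (0.65), which had 2564 counts in the knockdown and 1614 in the control library. The lower ones were TXNDC5 (-0.74), TMX2 (-0.65) and TXNDC11 (-1.08), a thioredoxin-domain gene with 273 counts in the knockdown and 805 in the control library.

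Of the ER prolyl isomerases 1 of 5 was higher, PPIB (0.60; 11395 counts in the knockdown and 7696 in the control library), and 0 were lower. In glycan trimming and glycoprotein quality control 2 of 7 were higher and 1 was lower. The higher ones were the subunits of glucosidase II, which trims the glucose that CALR and CANX bind: GANAB, the catalytic subunit, and PRKCSH, the regulatory one. GANAB had 20546 counts and 80.8 FPKM in the knockdown library against 8674 counts and 33.3 FPKM in the control library, 2.43-fold higher (2.37 to 2.49). PRKCSH had 14469 counts in the knockdown and 8978 in the control library, a log2 ratio of 0.71, while MLEC, a lectin for glucosylated glycans, had -0.68.

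Among the sensors, transcription factors and feedback genes of the unfolded protein response 3 of 11 were higher and 0 lower, with a median of -0.02. The 3 were ATF4 (log2 ratio 0.73; 6875 counts in the knockdown and 4207 in the control library), DDIT3 (1.095; 281 and 50) and PPP1R15A (0.72; 1987 and 1190). As background, these genes belong to the PERK arm, and the same genes also answer to stresses outside the ER. DDIT3 counted as expressed only through the knockdown library (1.81 FPKM, against 0.31 in the control library). MBTPS1, the protease that cleaves ATF6, had a log2 ratio of -0.37. XBP1 had 1709 counts in the knockdown and 1484 in the control library (0.21), and ATF6 had 350 and 402 counts (-0.11). XBP1 and ATF6 fall outside the naming rule and were added after their values were seen, because they are the factors of the ERSE.

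In ER-associated degradation, the process that HERPUD1 serves, 1 of 14 was higher, AUP1 (0.71), and the median was -0.31. In that list 3 were lower, UBE2G2 (-0.88) and FAF2 (-0.81) among them. UBE2G2 counted as expressed only through the control library (2.14 FPKM, against 0.712 in the knockdown library). Of the translocon, signal peptidase and oligosaccharyltransferase genes 0 of 17 were higher and 3 were lower, with a median of -0.33. SSR3, a translocon-associated subunit, had 339 counts in the knockdown and 1273 in the control library, 3.66-fold lower (3.25 to 4.14). DAD1, an oligosaccharyltransferase subunit, had a log2 ratio of -0.69 and SEC61A1, the channel subunit, -0.68. In ER to Golgi traffic 0 of 16 and in ER calcium handling 0 of 7 passed 1.5-fold either way on the log2 scale with 1 added. By counts some of these genes did pass it. Among them were SEC24A, 1.71-fold higher (1.47 to 1.995), LMAN1, 1.68-fold lower (1.45 to 1.95), and ATP2A2, 1.53-fold lower (1.47 to 1.59). By counts with 0.5 added to each, 1165 of the 8957 expressed genes were higher and 2489 lower by 1.5-fold or more. Whether the source of the heart marker reads added to the ATP2A2 counts of the control library was not tested. Of the relatives in other compartments 1 of 9 was higher, the cytosolic HSPA8 (0.61), while HSPA9 of mitochondria had 0.01, and the cytosolic HSP90AA1 and HSP90AB1 had 0.15 and -0.11.

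**Figure D5:**
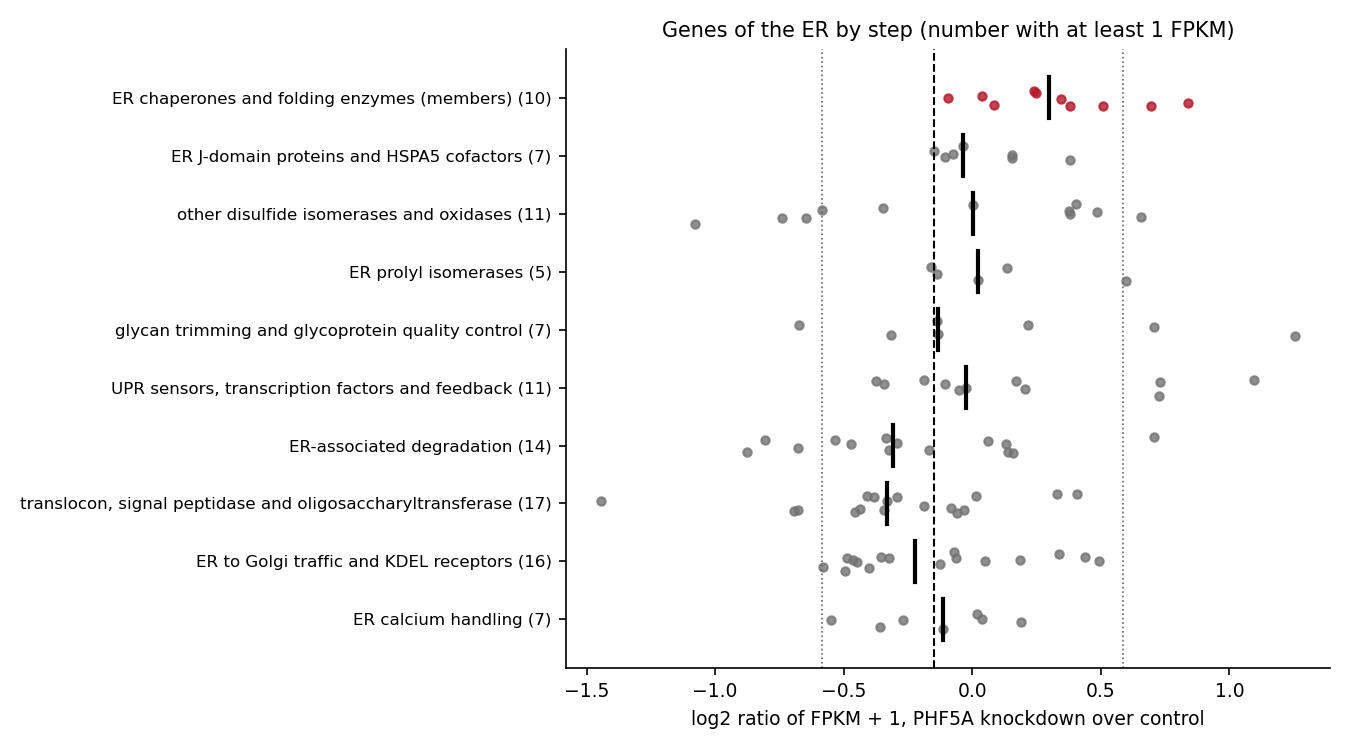
Log2 ratio of FPKM + 1, PHF5A knockdown over control, for the 10 chaperone genes (red) and for the expressed genes of 9 other ER lists (grey), with a black bar at each median, the dashed line at the median of all expressed genes (-0.15) and dotted lines at 1.5-fold. The median of the 10 genes (0.30) lies right of the 9 list medians, which run from -0.33 to 0.02.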

How the data were processed

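Total RNA from the PHF5A knockdown and the control culture was extracted with Trizol and made into stranded total RNA libraries, per the labels' protocols. The submitters' processing notes name HISAT2 2.0.4, Cuffdiff and the genome build hg38 (GRCh38). Which annotation was used, whether counting took account of strand and how multiply matching reads were handled was not given in the sources used here, so reads of overlapping genes and copies are uncertain. Per the file headers, the authors deposited an FPKM and a raw count for every gene in each library. Of 50869 lines, 2 broken ones were left out. Over the 14196 genes with at least 20 control counts, the length implied by count and FPKM lay within 2% of the summed annotated exons for 87.7% and of the merged exons for 12.8%. Spans, exons and lengths were taken by gene identifier from GENCODE 29 (50110 rows matched), and the spans of the 10 genes equal those deposited.

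Log2 ratios came from FPKM plus a pseudocount of 1, so that the change of low genes is understated. A gene counted as expressed from 1 FPKM upwards in its higher library. Thresholds of 1.5-fold and 2-fold are by size alone. Count ratios and shares have exact binomial (Clopper-Pearson) 95% intervals and levels exact Poisson ones, for counting error only, since reads are not independent molecules. The members, the lists, the markers and the naming rule (the 10 genes, PHF5A, the 4 small RNAs, up to 4 expressed genes a list with the largest absolute log2 ratio, and markers at 0) were chosen with earlier results of these data known. The value of 1 gene that the naming rule selects is not reported here. RN7SL2 was matched by its identifier. Promoter windows came from RefSeq (GRCh38.p14). A planned description of protein sequences was not run, as no protein sequences were used here. The computation was tested on simulated data. The tools were pandas 2.3.3, numpy 2.4.6, matplotlib 3.10.9 and scipy 1.17.1 under Python 3.11.15. Alternatives were other pseudocounts, filters and scalings, sums with copies and overlapping entries, and totals without heart markers or small RNAs.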

Additional observations from a re-analysis of the deposited data

How the results depend on the processing

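Under 13 alternative settings, 12 of them planned and 1 (merged exon length) chosen after seeing the data, the median of the 10 genes stayed 0.34 to 0.51 above that of the expressed genes, against 0.45 as reported. The lowest value, 0.34, came with no filter on FPKM, which adds genes of few counts near 0. Of the 10 genes, 0 stood at least 1.5-fold higher with TPM rescaling, against 2 as reported, because that scaling moves the median of the expressed genes to -0.47. With centring, upper-quartile scaling or the small RNAs left out the count was 3, with CANX added, while over all expressed genes it was 1150 of 8957, 1108 of 8957 and 1226 of 9812, against 757 of 8957 as reported. With the other 9 settings 2 of the 10 genes were higher by that much. No gene was at least 1.5-fold lower or 2-fold either way under any of the 13. All 10 lay above the median of the expressed genes, except PDIA4 with TPM rescaling (-0.51) and with no filter (-0.09 against a median of -0.04). Of 130 values of single genes, 40 moved by more than their counting interval, under the 4 scalings except for HERPUD1 with CPM in place of FPKM (0.52). HSPA5 and HSP90B1, the 2 genes past 1.5-fold as reported, kept their sign under every setting. Other genes did change sign: 4 of the 10 lay above 0 with TPM rescaling, against 9 as reported. With centring, upper-quartile scaling or the small RNAs left out, all 10 lay above 0. The medians of the 9 lists moved in 6 of 99 comparisons. The widest move was that of the unfolded protein response genes at a minimum of 5 FPKM, 0.60 above the expressed median against 0.12. This is more than the 0.43 of the 10 chaperone genes at that minimum. Of the response list only ATF6B, XBP1, ATF4 and PPP1R15A reached 5 FPKM, and ATF4 and PPP1R15A are among its genes reported as higher. No paired analysis was possible because each group has 1 library, and no library could be left out for the same reason. Depth left the direction of PDIA6 unresolved, since its counting interval holds 1.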

Other observations

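Outside the 10 chaperone genes, an ERSE or ERSE-II stood in the promoter windows of 36 other gene symbols, of which 28 had a row in the table and 15 were expressed. These values were looked at after those of the 10 genes were known. Their median log2 ratio was 0.04, and 8 of the 15 lay above the median of all expressed genes (-0.15). At 1.5-fold 0 were higher and 2 lower, the mannosyltransferase ALG12 (-0.91; 487 counts in the knockdown and 1073 in the control library) and the histidine methyltransferase SETD3 (-0.68; 307 and 652). Several of the 15 have known roles in the ER. FICD, which modifies HSPA5 by AMPylation, had 171 counts in the knockdown and 73 in the control library. Its count ratio was 2.40 (1.82 to 3.20) but its log2 ratio 0.51 at its low FPKM. FICD counted as expressed only through the knockdown library (1.05 FPKM, against 0.439 in the control library). XBP1 had a log2 ratio of 0.21 and CRELD2, a secreted stress-induced protein, 0.05. SERP1, which binds the translocon, had 767 counts in the knockdown and 1148 in the control library, a log2 ratio of -0.41. With the 10 genes included, 23 expressed genes had either element, and 2 of them, HSPA5 and HSP90B1, were at least 1.5-fold higher, a share near the 8.45% of all expressed genes.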
